A study of Mus musculus with 10 samples.

Results

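Back skin stretched over a filled tissue expander was compared with back skin that had never been operated on. The comparison used 6 of the 10 arrays in the series, chosen by sample title: the 4 arrays of expanded skin and the 2 arrays of skin without implantation. Every sample came from C57BL/6J mice that were 9 weeks old at the start of the experiment. In the expanded mice a silicon expander lay beneath the back skin and was enlarged step by step with injected PBS (phosphate-buffered saline). Skin above it was sampled at days 0, 7, 14 and 21 after the expander had been fully injected, with 1 array for each day. The skin without surgery was in telogen, when hair follicles rest, on 1 array and in anagen, when they grow hair, on the other. No sampling day is given for these 2 arrays, and no hair stage for the operated skin. The remaining 4 arrays, at the same days, were of skin over an implanted expander that received no PBS. They entered the estimate of the spread between arrays and are given beside the results. The series asks about mechanical tension and Lgr6-marked stem cells in the growth of skin, and the comparison here takes implantation, stretch and the passage of time together against untouched skin.

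Skin under sustained stretch enlarges through division of epidermal cells and through remodelling of the dermis, whose collagen and elastic fibres are made by fibroblasts and linked by enzymes of the lysyl oxidase family. Stretched cells pass force through integrins and the actin skeleton to the nucleus, where the co-activators YAP and TAZ act with TEAD factors on targets such as Ankrd1, Ccn1 and Ccn2. An implant also meets macrophages, which gather around foreign material, and mouse back skin carries a sheet of striated muscle, the panniculus carnosus, beneath its fat. Hair follicles cycle in near synchrony over the back of young mice, so whole-skin RNA differs widely between telogen and anagen, and a gene outside the range of both stages lies beyond what these arrays of the cycle show.

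Levels are probe-set values read as log2 signal, so a difference of 1 is a doubling on the deposited scale, and background probe sets had a median of 5.46. Array medians lay between 6.27 and 6.45. Each array held skin by its markers: Krt14 of basal keratinocytes lay between 14.22 and 17.51 on the 6 arrays, and Col1a1 of fibroblasts between 16.57 and 18.40. The hair stages matched their labels, since the mean over 22 genes of the growing hair (shaft and inner root sheath) was 6.00 in telogen and 15.57 in anagen. Expanded skin at day 7 stood apart, with a mean of 11.01 for those genes against 4.73, 5.24 and 5.79 at days 0, 14 and 21. Counts are therefore also given without it where they moved most. A value under the background median is not a measured level, so a difference that rests on one is limited by background. No label says whether an array held 1 mouse or a pool, and the 4 expanded arrays come from different days. The p-values thus measure the spread between these arrays only, and the lone telogen and anagen arrays were assumed to vary like the others when each was taken alone.

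More genes lay above than below both hair stages in stretched skin. Of the gene lists described here, 21 of 22 macrophage, 18 of 24 immediate early, 19 of 30 fibrillar matrix and 9 of 17 developing and slow muscle genes lay above both no-surgery arrays on every expanded array. Below both lay 6 of 10 melanocyte and 7 of 19 adipocyte genes. Of 13653 genes tested, 1911 lay above both no-surgery arrays on all 4 expanded arrays (14.0%) and 1173 lay below both (8.59%). The imbalance was smaller under other scalings, at 1669 above and 1488 below after quantile normalization and 1707 and 1388 after centring each array on its median. The median difference between group means was 1.19 for the genes above and -0.78 for the genes below, against 0.01 over all genes tested. The gap, which is the distance from the nearest expanded array to the nearer no-surgery array, was at least 1 for 335 of the genes above and 45 of those below. At the edge, Rab18 was counted with a gap of 0.00015 and Bfar was not with -0.000145. Below the range, Nif3l1 counted with a gap of 0.000247 and Capn10 missed with -0.000288. With 4 arrays against 2, an exact permutation test of a single gene cannot go below 0.133 (two-sided), so these are counts of position and not of significance.

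In limma's moderated test over all 10 arrays, 65 genes passed an adjusted p of 0.05. Of these, 61 were higher in expanded skin (0.447% of genes tested) and 4 were lower (0.0293%). All 61 lay above both no-surgery arrays and all 4 lay below both. Telogen and anagen formed 1 group in this fit, so a difference between them counted as spread. Genes that pass it therefore tend to lie outside both stages. The last gene to pass was Eln, with limma's adjusted p = 0.0466, and the next was Arhgef7, with adjusted p = 0.0503. The count depended on single arrays: 8 genes passed without expanded day 0, 43 without day 7, 5 without day 14 and 86 without day 21. Ccn3, Cilp, Lox, Myh3 and Angpt2 passed in each of these 4 omissions, and every other gene lost its call in at least 1 of them. None of the 4 lower genes passed without day 0 or without day 14. With telogen left out, 1850 genes passed, and with anagen left out, 62 did.

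**Figure D1:**
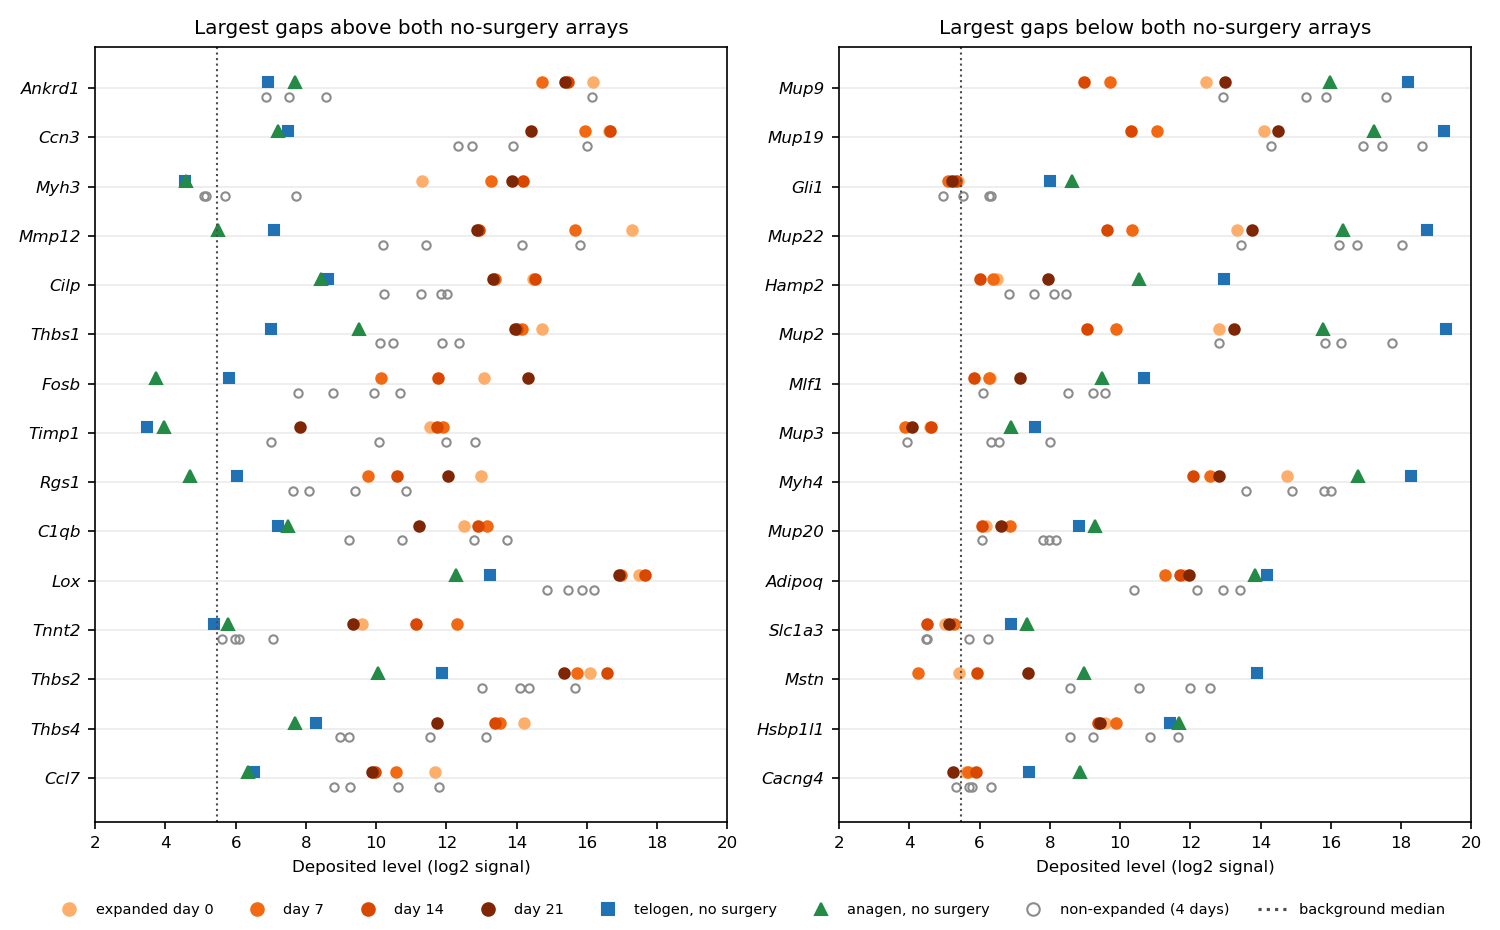
Deposited level (log2 signal, horizontal axis) of the 15 genes with the largest gap above (left) and below (right) both no-surgery arrays. Filled circles are the 4 expanded arrays by day, the square is telogen, the triangle anagen, open circles the 4 non-expanded arrays, and the dotted line the background median of 5.46. Every filled circle lies to the right of the square and triangle on the left panel and to the left of them on the right panel, while open circles lie on either side or between.

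The matrix of the dermis held many of the genes that passed. Ccn3, a matricellular protein of the CCN family (chromosome 15, 54745910 to 54753762, mm10), read 16.62, 15.93, 16.66 and 14.41 at days 0, 7, 14 and 21, against 7.48 in telogen and 7.20 in anagen. Every expanded array was thus at least 6.93 log2 units above the nearer stage. The difference was 8.56 ± 0.95 (SE), with limma's adjusted p = 0.0092. Lox, the lysyl oxidase that cross-links collagen and elastin, read 17.47, 16.96, 17.65 and 16.91 in expanded skin, 13.23 in telogen and 12.26 in anagen. Its difference was 4.51 ± 0.43 and its limma adjusted p 0.00635, the lowest of all genes. Cilp, a matrix protein of cartilage and tendon, read 14.47, 13.38, 14.51 and 13.32 against 8.61 and 8.44, a difference of 5.39 ± 0.54 (adjusted p = 0.00635). The 4 expanded arrays of Lox and of Cilp also stood above all 4 non-expanded arrays, which reached 16.21 and 12.03.

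Thrombospondins, large matrix glycoproteins that bind growth factors and cells, were higher as well. Thbs1 (chromosome 2, 118111876 to 118127133) read 14.73, 14.14, 14.02 and 13.94 in expanded skin, 6.99 in telogen and 9.52 in anagen. Its 4 expanded values lay within 1 unit of each other and more than 4 units above anagen. The difference was 5.95 ± 0.76 (limma adjusted p = 0.0162). Thbs2 differed by 4.98 ± 0.70 (adjusted p = 0.0253), and Thbs4, at 5.23 ± 1.08, did not pass (adjusted p = 0.0623) although its lowest expanded array, 11.74 at day 21, lay above 8.28 in telogen and 7.68 in anagen.

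Of the 30 tested genes of fibrillar and loaded matrix, all 30 had a positive difference, 19 lay above both stages and 5 passed: Thbs1, Thbs2, Eln, Bgn and Col6a2. Without expanded day 7, 24 lay above both. The median of the list was 1.81, beside 0.01 over all genes. On the non-expanded arrays 15 of the 30 lay above both stages, with a median of 1.46. Elastin (Eln) differed by 4.31 ± 0.77 and biglycan (Bgn), a proteoglycan that binds collagen fibrils, by 2.95 ± 0.52 (limma adjusted p = 0.0444). The elastic fibre genes Fbln5 (2.83 ± 0.45, adjusted p = 0.0359) and Mfap5 (4.31 ± 0.69, adjusted p = 0.0359) also passed. The main fibrillar collagens differed less. Col1a1 read 18.14, 16.98, 18.26 and 18.40 in expanded skin, 18.03 in telogen and 16.57 in anagen, so the groups overlapped, and its difference of 0.65 ± 0.61 did not pass (adjusted p = 0.656). Col3a1 lay above both stages by a small margin, with a lowest expanded value of 17.92 against 17.83 in telogen, and a difference of 0.70 ± 0.44. These collagen signals lie near the top of the scale, where an array can lose range.

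Among 29 enzymes and inhibitors that cut or cross-link matrix, 20 lay above both stages, none lay below, and 4 passed: Lox, Loxl1, Loxl3 and Adamts1. Loxl1 and Loxl3, further members of the lysyl oxidase family, differed by 3.91 ± 0.68 and 3.52 ± 0.59, and the protease Adamts1 by 2.89 ± 0.48. The telogen value of Loxl3, 5.15, lay under the background median. The median of the list was 2.29, and without expanded day 7, 24 lay above both. In non-expanded skin 17 of the 29 lay above both, with a median of 1.76. Mmp12, the elastase of macrophages (chromosome 9, 7344397 to 7360461), read 17.28, 15.66, 12.92 and 12.86 at days 0, 7, 14 and 21, against 7.10 in telogen and 5.48 in anagen. The values at days 0 and 7 were the higher ones, and all 4 stood at least 5.76 units above telogen. Its difference of 8.39 ± 1.62 did not pass (limma adjusted p = 0.0602). Timp1, an inhibitor of matrix metalloproteinases, read 11.54, 11.90, 11.73 and 7.82 against 3.46 and 3.97, so day 21 lay well below the other days. Its difference was 7.03 ± 1.54 (adjusted p = 0.0683), and both no-surgery values lay under the background median.

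Genes of embryonic and slow muscle were high in stretched skin. Myh3, a myosin heavy chain of embryonic fibres (chromosome 11, 67078273 to 67102291), read 11.32, 13.28, 14.17 and 13.87 in expanded skin and 4.55 and 4.59 in telogen and anagen. Both no-surgery values lay under background, which limits how large the difference can read. It was 8.59 ± 0.86 (limma adjusted p = 0.00635). Tnnt2, the cardiac form of troponin T that embryonic muscle also makes (chromosome 1, 135836315 to 135852268), read 9.61, 12.29, 11.13 and 9.33 against 5.39 and 5.78. Its difference was 5.01 ± 0.75 (adjusted p = 0.0259), limited by a telogen value under the background median. Of 17 tested genes of developing and slow muscle, 9 lay above both stages and 2 passed, Myh3 and Tnnt2. The list's median was 2.20.

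The slow troponin Tnni1 read 6.48, 9.55, 10.54 and 11.80 in expanded skin, above 3.36 in telogen and 5.03 in anagen, and did not pass (5.39 ± 1.17, adjusted p = 0.0665), and both no-surgery values lay under the background median. Ncam1, an adhesion molecule found on regenerating and denervated fibres, differed by 4.24 ± 0.84 (adjusted p = 0.061). Mymk, which lets myoblasts fuse, read 6.99, 9.94, 9.27 and 5.85 against 4.48 and 4.79, with a difference of 3.38 ± 1.04 (adjusted p = 0.145) that background limits likewise. Of the 15 tested genes of muscle regeneration and denervation, 7 lay above both stages, 1 lay below and none passed. The integrin subunit Itga7, which binds muscle cells to laminin, passed at 2.19 ± 0.37 (adjusted p = 0.0428).

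Adult muscle genes took a different course. The mean level of 35 genes of adult skeletal muscle was 15.09 in telogen and 11.30 in anagen, and 12.98, 11.02, 11.41 and 14.03 on the expanded arrays, so the no-surgery arrays already lay far apart. Only Mstn and Myh4 were below both stages on all 4 expanded arrays, 2 of 35 (5.71%) beside 8.59% over all genes tested. The list as a whole thus held no excess of genes below both stages. Mstn, which encodes myostatin, the secreted brake on muscle growth, read 5.40, 4.25, 5.93 and 7.39 in expanded skin, 13.89 in telogen and 8.98 in anagen. The difference was -5.69 ± 1.42 (limma adjusted p = 0.0901), limited by values under the background median at days 0 and 7. Myh4, the myosin of the fastest fibres, read 14.75, 12.55, 12.07 and 12.83 against 18.27 and 16.77, a difference of -4.47 ± 0.84 (adjusted p = 0.0553). In bulk tissue, fewer cells of a type and less RNA per cell cannot be told apart, and the share of muscle in each piece of skin was not measured.

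**Figure D2:**
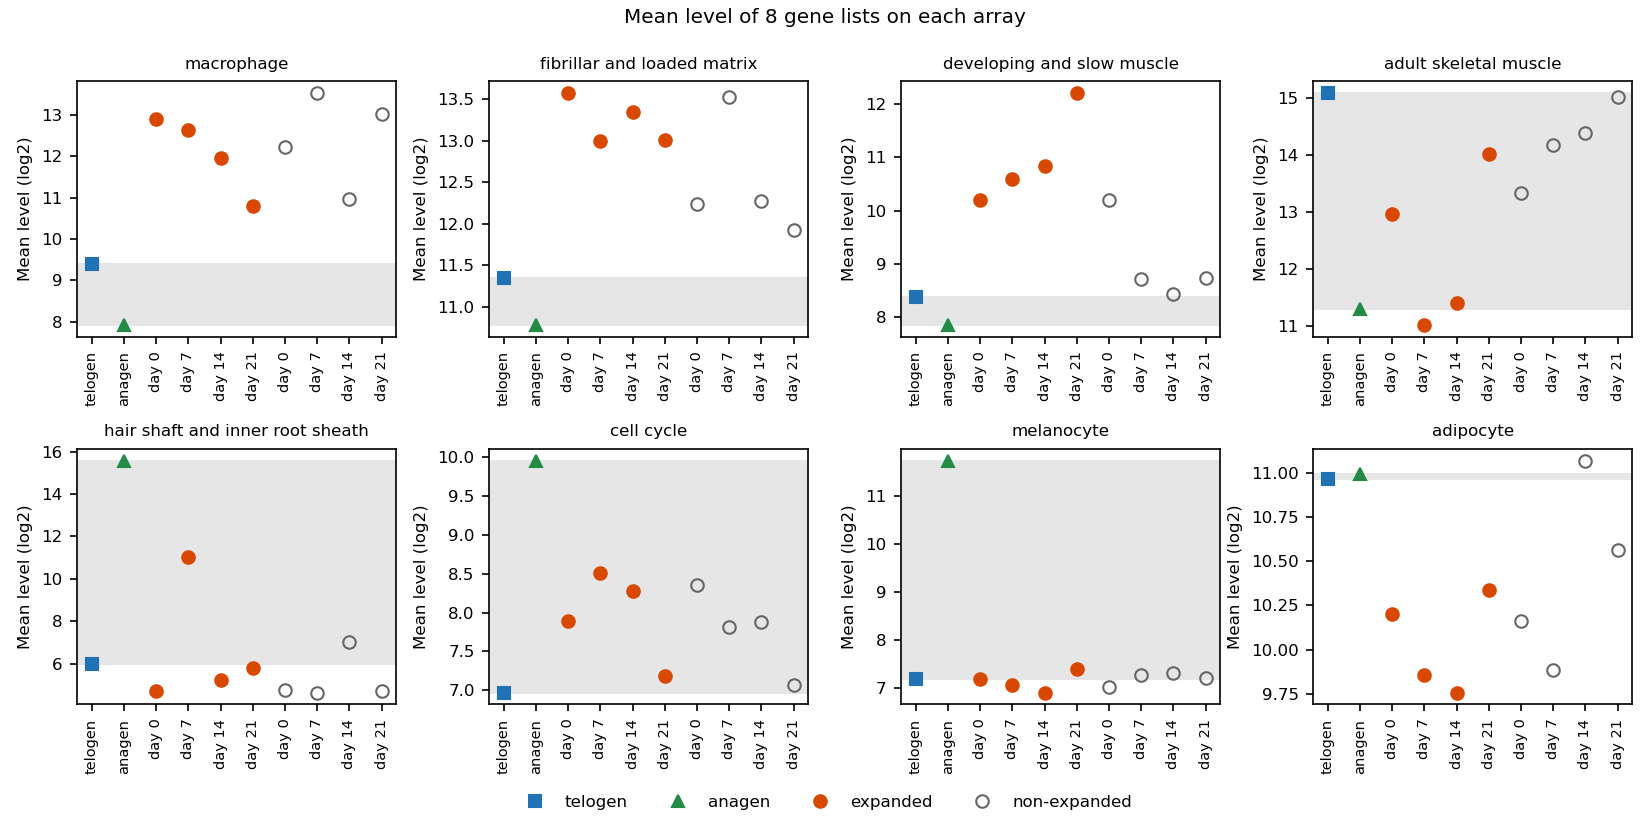
Mean level (log2 signal) of 8 gene lists on each of the 10 arrays, with the grey band spanning telogen to anagen. Filled circles are expanded and open circles non-expanded skin. Macrophage and fibrillar matrix means lie above the band on all 4 expanded arrays, those of fat cells lie below it, and the hair shaft mean of expanded day 7, 11.01, lies within it while days 0, 14 and 21 lie just under it.

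Of the 15 genes with the widest gap above both stages, 10 had a promoter sequence in RefSeq, and the 4 with the largest differences among them (Myh3, Mmp12, Ankrd1 and Fosb) were searched for short motifs. The motifs were CATTCC, bound by TEAD factors, and TGANTCA, bound by AP-1 (dimers of Fos and Jun proteins), each read on both strands from 250 bases before to 50 bases after the start of transcription. Of 32851 mouse promoters of this length, 14.7% held the TEAD motif and 7.81% the AP-1 motif. The Ankrd1 promoter held the TEAD motif at 2 places, beginning at -210 and -123 from the start, both on the strand opposite to the gene. Mmp12 has 2 annotated starts, and the window of the downstream one held 1 AP-1 motif, at -44. Windows of Myh3, Fosb and the upstream start of Mmp12 held neither. The 250 bases before the start are printed for a promoter with each motif and for one with neither, from RefSeq on GRCm38.p6, read 5′ to 3′ on the strand of the gene, with matches in capitals. They lie at chr19:36119845-36120094 on the minus strand for Ankrd1, chr9:7347124-7347373 on the plus strand for Mmp12 and chr11:67078050-67078299 on the plus strand for Myh3. A match is a run of letters and not a measured site.
Ankrd1: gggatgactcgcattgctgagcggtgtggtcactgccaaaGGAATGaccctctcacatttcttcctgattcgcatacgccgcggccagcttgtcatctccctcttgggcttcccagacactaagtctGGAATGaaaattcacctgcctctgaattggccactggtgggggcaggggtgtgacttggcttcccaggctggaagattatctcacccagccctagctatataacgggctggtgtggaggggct
Mmp12: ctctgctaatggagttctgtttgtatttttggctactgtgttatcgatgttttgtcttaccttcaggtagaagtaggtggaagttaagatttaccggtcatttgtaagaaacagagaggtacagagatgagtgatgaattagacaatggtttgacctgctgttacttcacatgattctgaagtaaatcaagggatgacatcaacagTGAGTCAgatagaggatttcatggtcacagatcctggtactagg
Myh3: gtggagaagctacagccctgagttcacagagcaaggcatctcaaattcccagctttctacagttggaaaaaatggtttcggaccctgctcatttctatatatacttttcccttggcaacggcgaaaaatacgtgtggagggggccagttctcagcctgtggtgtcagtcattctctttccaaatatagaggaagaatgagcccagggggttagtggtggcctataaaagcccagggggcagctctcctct

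Ankrd1, a nuclear and sarcomeric protein that muscle and other cells make under strain (chromosome 19, 36111965 to 36119844), read 16.17, 14.71, 15.47 and 15.38 in expanded skin, 6.91 in telogen and 7.68 in anagen. No other gene had a wider gap, at 7.02. Its difference of 8.13 ± 2.05 did not pass (limma adjusted p = 0.0916), and the non-expanded arrays, which share the estimate of spread, ran from 16.13 at day 0 to 6.85 at day 21. Ccn2, a CCN protein made by fibroblasts under tension, read 14.90, 13.03, 14.35 and 12.59 against 9.24 and 7.85, and passed at 5.17 ± 0.66 (adjusted p = 0.0162). Ccn1 differed by 5.18 ± 1.08 (adjusted p = 0.0633). Of 28 tested YAP and TAZ targets, 9 lay above both stages, none lay below, and Thbs1 and Ccn2 passed. Without expanded day 7, 14 lay above both. The median of the list was 0.45, and Yap1 itself read 9.26 to 10.52 in expanded skin against 9.93 and 10.71. Another CCN gene, Ccn5, passed at 4.28 ± 0.70 (adjusted p = 0.0393).

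Among 24 genes of force sensing and adhesion, 10 lay above both stages and 1 passed. That gene was Lmna, which encodes the lamins A and C of the nuclear envelope. It read 14.04, 13.80, 14.85 and 14.15 against 11.65 and 12.31, a difference of 2.23 ± 0.39 (limma adjusted p = 0.0454). Itga5, the fibronectin-binding integrin subunit, read 7.78 to 9.57 against 5.56 and 5.46, and its difference was 3.15 ± 0.64 (adjusted p = 0.061). Talin (Tln1) lay above both stages with a difference of 1.10 ± 0.40, which did not pass.

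Immediate early genes, whose transcription starts within minutes of a stimulus, were high on the expanded arrays. Fosb, a Fos family member (chromosome 7, 19302696 to 19310118), read 13.07, 10.15, 11.77 and 14.32 against 5.80 in telogen and 3.74 in anagen, with day 7 the lowest of the expanded arrays. It differed by 7.56 ± 1.13 (limma adjusted p = 0.0259), a size limited by background because its anagen value lay under the background median. Dusp1, a phosphatase that shuts off stress kinases, read 17.10, 14.27, 17.50 and 17.80 against 10.67 and 11.17, and passed at 5.75 ± 0.82 (adjusted p = 0.0253). Fos differed by 6.84 ± 1.41 and did not pass (adjusted p = 0.0623). Of 24 genes in the list 18 lay above both stages, and the median was 2.43. Nfkbia, the inhibitor of NF-kappa-B, and Ptgs2, the inducible cyclooxygenase, also passed, at 3.18 ± 0.50 and 4.04 ± 0.71. Mean levels of the list were 11.74, 10.24, 11.39 and 12.24 by day in expanded skin and 8.52 and 9.11 without surgery. Immediate early genes also respond to the handling of tissue, and the part of handling in these values was not tested.

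Macrophage genes lay higher throughout. Of 22 tested, 21 were above both stages on all 4 expanded arrays, and the exception, found after the values were seen, was Cd163, which read 10.19 at day 21 against 12.01 in telogen. The list's median was 3.42, and its mean level was 12.90, 12.63, 11.96 and 10.80 at days 0, 7, 14 and 21 against 9.41 in telogen and 7.92 in anagen. One member passed, Cd14, the co-receptor for bacterial lipopolysaccharide, which read 9.37, 9.01, 8.35 and 7.81 against 5.56 and 4.62 (3.55 ± 0.62, limma adjusted p = 0.0444). The anagen value of Cd14 lay under the background median, which limits its difference. The complement subunit C1qb read 12.49, 13.14, 12.91 and 11.21 against 7.20 and 7.49, and its difference of 5.10 ± 1.06 did not pass (adjusted p = 0.063). On the non-expanded arrays 21 of the 22 lay above both stages as well, and the list's median difference from the same no-surgery arrays was 4.02. No gene of any kind passed in that comparison. By group mean, 17 of the 22 were lower and 5 higher in expanded than in non-expanded skin.

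Complement components followed, with 14 of 18 genes above both stages and a median of 2.64. On the non-expanded arrays 14 of 18 lay above both stages as well, with a median difference of 3.00. Those that passed were C2 (2.47 ± 0.30, limma adjusted p = 0.0155), C4a (4.20 ± 0.70, adjusted p = 0.0404) and Masp1, a protease of the lectin pathway (2.99 ± 0.41, adjusted p = 0.0235). C4a and C4b are near-identical copies, so the array may not separate them. The anagen value of C4a, 5.03, lay under the background median, which limits its difference. Masp1 read 11.05, 10.80, 11.69 and 10.15 in expanded skin, 7.92 and 7.94 without surgery, and at most 8.95 in non-expanded skin. Its difference from non-expanded skin, 2.39 ± 0.33, did not pass (adjusted p = 0.123).

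Of 31 chemokines and cytokines, 18 lay above both stages (58.06%, beside 14.0% over all genes) and 1, Ccl27a, named after the values were seen, lay below both. The median was 2.23. On the non-expanded arrays 17 of the 31 lay above both stages, with a median of 2.11. The 3 that passed were Ccl3 (4.88 ± 0.83, limma adjusted p = 0.0423), Ccl12 (4.07 ± 0.69, adjusted p = 0.0414) and Cxcl16 (3.23 ± 0.51, adjusted p = 0.0349), chemokines that draw monocytes or T cells. Ccl7, which also attracts monocytes, read 11.68, 10.57, 9.96 and 9.89 against 6.53 and 6.36 and did not pass (adjusted p = 0.0597). The telogen and anagen values of Ccl3, 5.09 and 3.30, lay under the background median, which limits its difference. Rgs1, a brake on chemokine receptor signalling in leukocytes, passed at 5.99 ± 1.01 (adjusted p = 0.0412), with values of 12.98, 9.78, 10.60 and 12.03 against 6.03 and 4.69. The anagen value of Rgs1 lay under the background median, which limits that difference. In the neutrophil list 9 of 13 genes lay above both stages with a median of 2.58, and none passed. Its mean was 8.11, 10.40, 8.46 and 6.82 by day against 5.69 and 5.35, so day 7 was highest. In non-expanded skin 11 of the 13 neutrophil genes lay above both stages, with a median of 3.57.

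Mast cell genes lay above both stages for 8 of 11, and Mrgprb1, a receptor of mast cells, passed at 1.90 ± 0.34 (limma adjusted p = 0.0455). Its telogen and anagen values, 5.21 and 5.39, lay under the background median, which limits that difference. Of 13 genes for antigen presentation 5 lay above both, and of 14 T and NK cell genes 2 did, with medians of 1.52 and 0.62 and no gene that passed. The T and NK cell share of 14.29% was about the 14.0% over all genes. In the interferon response 5 of 23 genes (21.74%) lay above both stages, with a median of 0.37. On the non-expanded arrays 12 of the 23 did, with a median of 1.41. Most definitive B cell and red blood cell genes were not among the genes tested, and each of those lists kept 2.

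Endothelial genes were higher, led by Angpt2, the angiopoietin that loosens vessels for sprouting. It read 10.89, 9.97, 10.59 and 9.85 against 6.77 in telogen and 6.29 in anagen, and differed by 3.80 ± 0.39 (limma adjusted p = 0.00647). Of 23 genes of blood and lymphatic endothelium 16 lay above both stages, all 23 had a positive difference, and the median was 1.37. On the non-expanded arrays 11 of the 23 lay above both stages, all 23 had a positive difference as well, and the median was 1.03. Angpt2 differed there by 2.57. Pdpn, of lymphatic vessels and of fibroblasts, differed by 3.31 ± 0.70 (adjusted p = 0.064). In the list for hypoxia and glycolysis, 11 of 23 genes lay above both stages and none passed. Adrenomedullin (Adm), a vasodilator peptide, had the largest difference among those named, at 3.52 ± 0.79 (adjusted p = 0.0717).

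Insulin-like growth factor genes passed at 2 points of the system. Igf1 read 16.26, 15.10, 15.38 and 15.67 against 13.28 and 12.80, a difference of 2.57 ± 0.45 (limma adjusted p = 0.0444). Igfbp2, a binding protein of these factors, read 13.41, 14.49, 13.97 and 14.05 against 10.33 and 8.49, a difference of 4.57 ± 0.68 (adjusted p = 0.0259). Its 4 expanded values also exceeded all 4 non-expanded values, which reached 11.71. Igf2 differed by 3.86 ± 0.89 and did not pass (adjusted p = 0.0773). In all, 6 of 14 genes lay above both stages. The transcription factor Osr1, known from connective tissue progenitors, passed at 3.91 ± 0.48 (adjusted p = 0.0155), with 16.02, 15.40, 15.98 and 15.47 against 12.59 and 11.02. Apod, an apolipoprotein of dermal fibroblasts, passed at 3.83 ± 0.57 (adjusted p = 0.0259). The oxidase Nox4 and the thrombin receptor F2r passed at 3.88 ± 0.58 and 3.42 ± 0.54.

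In the epidermis the keratins of the basal layer and of the first suprabasal layers lay above both stages, though none passed. Krt14 read 16.30, 17.51, 17.14 and 16.17 against 14.22 and 14.65, with a difference of 2.34 ± 0.58 (limma adjusted p = 0.0901). Krt1, of differentiating cells, read 17.79, 18.92, 19.09 and 17.67 against 16.04 in telogen and 11.97 in anagen. Krt10, its partner, read 18.58 to 19.13 in expanded skin and 18.42 in telogen, so the margin over telogen was small beside the 3.22 ± 0.36 over anagen. The wound keratin Krt16 read 10.39, 16.16, 13.84 and 9.13 against 5.94 and 8.67, with days 7 and 14 high and day 21 near anagen (5.08 ± 2.22, adjusted p = 0.293). Of 21 stress and wound genes of the epidermis 11 lay above both stages, and of 14 basal genes 5 did.

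Receptors of stem cells differed among themselves. Lgr5, an R-spondin receptor of follicle stem cells (chromosome 10, 115450314 to 115587780), read 10.13, 9.88, 11.44 and 10.61 against 7.91 in telogen and 8.96 in anagen. All 4 expanded arrays lay above both stages and above the 4 non-expanded arrays, which reached 9.44, and the difference of 2.08 ± 0.54 did not pass (limma adjusted p = 0.0959). Lgr6, the receptor named in the title of the series (chromosome 1, 134983300 to 135105374), read 5.80, 5.18, 6.14 and 6.29 against 6.82 and 6.24. Its values lay near the background median and overlapped between groups, with a difference of -0.68 ± 0.44 (adjusted p = 0.495). Of 17 genes of epidermal and follicle stem cells 3 lay above both stages (17.65%) and 5 below (29.41%), beside 14.0% and 8.59% over all genes. On the non-expanded arrays 2 of the 17 lay above both stages and 5 below. The list's median of -0.09 became 0.11 without expanded day 7 and 0.002 when only genes above the 50th percentile of level were tested.

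The gene of that list that passed was Gli1, which hedgehog signalling switches on (chromosome 10, 127329882 to 127341579). It read 5.38, 5.11, 5.32 and 5.21 in expanded skin, 8.01 in telogen and 8.63 in anagen. All 4 expanded values lay under the background median, so the fall can be read only as a lower limit of the true change. The difference was -3.06 ± 0.40 (limma adjusted p = 0.0203, and up to 0.0820 with 1 expanded array left out), and the non-expanded arrays read 6.27, 4.95, 6.34 and 5.52. Sox9, a transcription factor of follicle cells, lay below both stages at 10.79, 12.04, 10.21 and 11.67 against 12.19 and 13.99, and did not pass. Beside 8.59% below and 14.0% above over all genes, 6 of 22 Wnt pathway genes lay below both stages (27.27%) and 3 above (13.64%). Among them were the Wnt inhibitor Wif1, at -2.62 ± 0.61 (adjusted p = 0.0777), the R-spondin receptor Lgr4, at -1.70 ± 0.37 (adjusted p = 0.0657), and the Wnt target Axin2, at -1.54 ± 0.42 (adjusted p = 0.116). Sfrp2, a secreted Wnt modulator of fibroblasts, went the other way, at 4.69 ± 1.28 (adjusted p = 0.113). On the non-expanded arrays 5 of the 22 Wnt genes lay below both stages and 1 above. Wif1, Lgr4, Axin2 and Sfrp2 differed there by -3.12, -2.21, -1.47 and 5.15.

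The other 3 genes that passed below were Hamp2, Cacng4 and Alms1. Hamp2, a hepcidin gene (chromosome 7, 30922372 to 30924181), read 6.50, 6.39, 6.02 and 7.94 against 12.95 in telogen and 10.54 in anagen, a difference of -5.03 ± 0.73 (limma adjusted p = 0.0259). Its sequence is close to that of Hamp, so signal of the pair may not be fully separate. Cacng4, an auxiliary subunit of calcium channels and glutamate receptors, read 5.25 to 5.89, close to background, against 7.41 and 8.86 (-2.53 ± 0.42, adjusted p = 0.0406). Alms1, a protein of the base of the cilium, read 7.36, 7.56, 7.15 and 7.83 against 9.36 and 9.21 (-1.81 ± 0.27, adjusted p = 0.0259).

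Major urinary protein genes filled 6 of the 15 widest gaps below both stages. They encode lipocalins known from liver and urine. Mup2 read 12.80, 9.87, 9.05 and 13.26 in expanded skin against 19.28 in telogen and 15.77 in anagen, with days 7 and 14 lowest, and its difference of -6.28 ± 1.55 did not pass (limma adjusted p = 0.0892). Mup9, Mup19 and Mup22 had differences of -6.06, -5.74 and -5.79. These 4 ran in parallel over the arrays and belong to a cluster of near-identical copies, so they are uncertain as separate genes. Mup20 and Mup3 read otherwise. Mup20 read 6.06 to 6.87 against 8.82 in telogen and 9.28 in anagen, and Mup3, under background on all 4 expanded arrays, read 7.59 in telogen and 6.91 in anagen. Mean levels of adult muscle and of fat cell genes were also lowest at days 7 and 14 on the expanded arrays, and their part in the values of Mup2 and its close copies was not tested.

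Fat cell genes lay lower. Adiponectin (Adipoq) read 11.78, 11.28, 11.70 and 11.96 against 14.19 and 13.84, and leptin (Lep) 6.15 to 6.61 against 7.36 and 8.99. All 4 expanded arrays of both genes were under both stages, and the differences of -2.33 ± 0.67 and -1.81 ± 0.62 did not pass. Of 19 adipocyte genes 7 lay below both, none lay above and none passed, with a median of -1.06. In the melanocyte list 6 of 10 genes lay below both, among them Slc24a5, which was tested only because its anagen value was high. Pmel, a protein of pigment granules, read 5.48, 5.23, 5.43 and 6.06 against 6.45 in telogen and 12.31 in anagen, so the drop against anagen made up most of its difference of -3.83 ± 1.18. Of 31 genes of the mitochondrial respiratory chain 3 (9.68%) lay below both stages, about the 8.59% over all genes, and none above, with a median of -0.15. Without expanded day 7, 6 lay below both.

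The remaining lists held few genes that passed. Among genes of giant cells and lipid-laden macrophages 8 of 17 lay above both stages, and among those of alternatively activated macrophages 6 of 17, with medians of 1.38 and 1.26 and none that passed. Of 17 clock genes 2 (11.76%) lay above both, or 4 without expanded day 7, and Bhlhe40, a repressor that also answers to stress, was the one that passed. Smooth muscle and myofibroblast genes lay above both stages for 4 of 19 (21.05%) and sebaceous gland genes for 3 of 19 (15.79%). Heat shock genes did for 3 of 14 (21.43%), and BMP and TGF-beta genes for 5 of 28 (17.86%). The share over all genes was 14.0%. The medians of these 4 lists were 0.41, 0.42, 0.42 and 0.35. Differentiating epidermis had 8 of 29 genes (27.59%) above both stages and a median of 0.61, and Schwann cell genes 2 of 9 (22.22%) and 0.15.

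**Figure D3:**
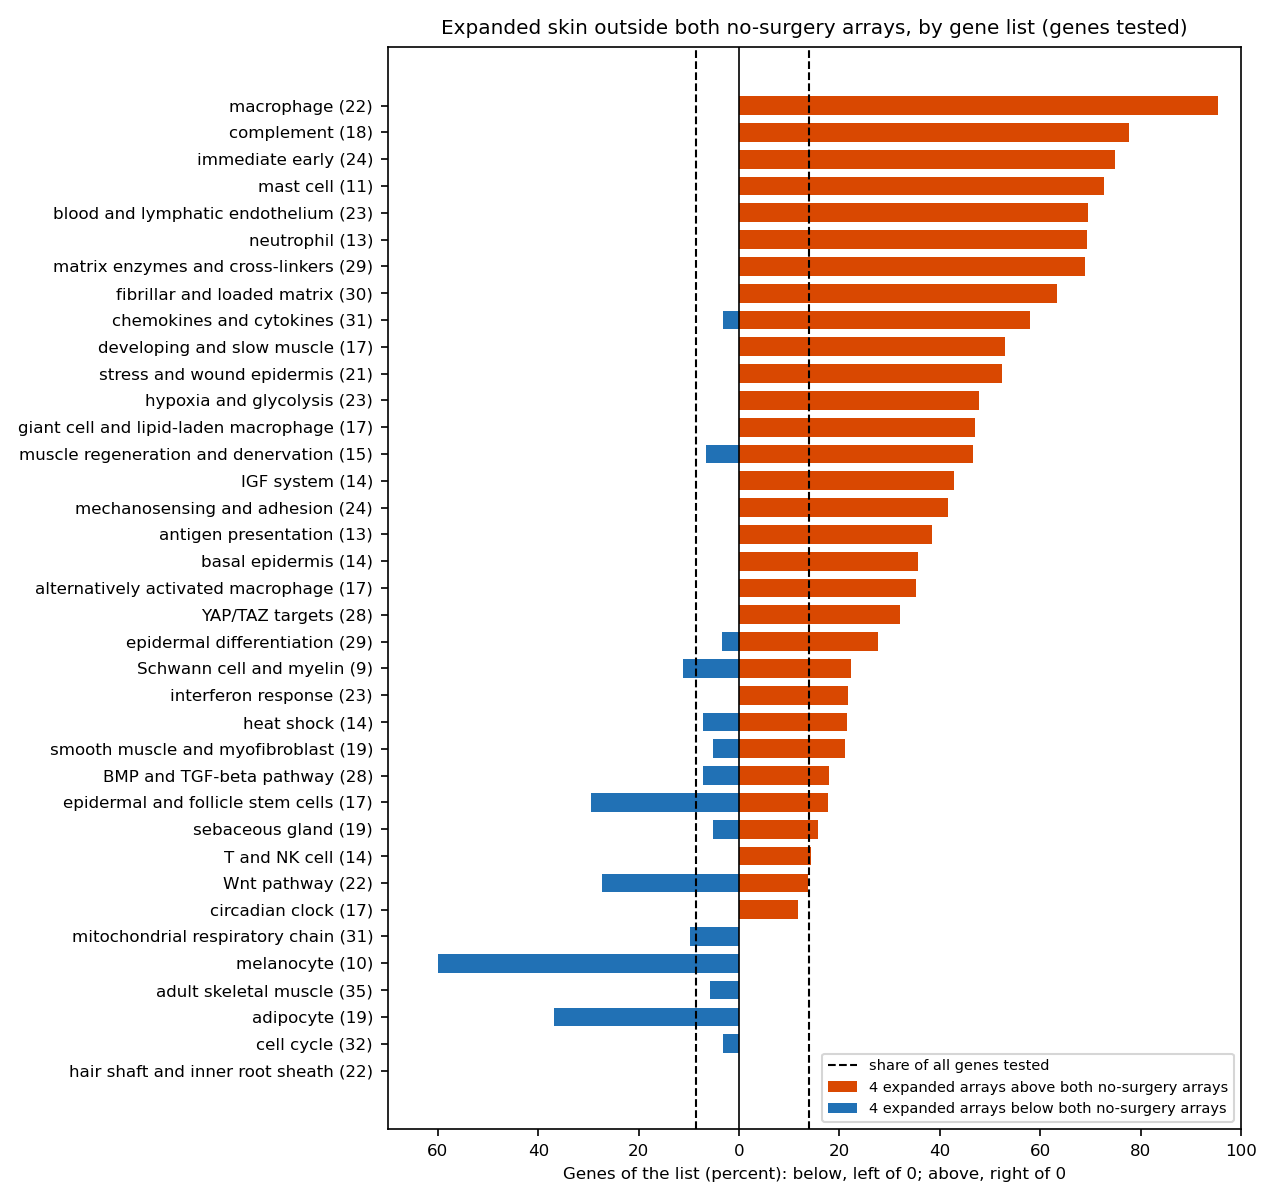
Share of each gene list (percent of the genes tested, number in brackets) whose 4 expanded arrays all lay above (orange, to the right) or all below (blue, to the left) both no-surgery arrays. Dashed lines mark the shares over all genes tested, 14.0% above and 8.59% below. Macrophage, complement and immediate early genes have the longest bars above, and melanocyte and adipocyte genes the longest below.

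Taking telogen alone asks how stretched skin differed from resting skin, the stage without growing follicles. The comparisons with telogen and with anagen share the 4 expanded arrays. Against telogen 62 genes passed, 37 higher (0.271%) and 25 lower (0.183%). After quantile normalization 33 were higher and 40 lower, and the median over all genes moved from 0.09 to -0.03, so the balance of directions here rests on the scaling. Leaving out expanded day 14 left 0 genes, with 2397 at an unadjusted p under 0.05, leaving out day 0 left 7, and leaving out day 7 left 16. Higher genes included Myh3 (8.60 ± 1.15, limma adjusted p = 0.0303), Ccn3 (8.42 ± 1.26, adjusted p = 0.0388), Thbs1 (7.21 ± 0.77, adjusted p = 0.0147), Cilp, Ccn5, Lox, Angpt2, Osr1 and Apod.

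Other genes passed against telogen while standing near their anagen level. Myc, a driver of cell growth, read 12.16, 12.10, 12.95 and 12.65 in expanded skin, 8.75 in telogen and 11.87 in anagen, and differed from telogen by 3.72 ± 0.42 (limma adjusted p = 0.0147) and from anagen by 0.59 ± 0.42 (adjusted p = 0.389). Dusp6, a phosphatase of ERK kinases, differed from telogen by 3.59 ± 0.37 (adjusted p = 0.0147) and from anagen by 0.94 ± 0.37 (adjusted p = 0.121). Both genes were chosen after their values were seen. On the lower side Mstn passed at -8.15 ± 1.41 (adjusted p = 0.0498) and Hamp2 at -6.24 ± 0.75 (adjusted p = 0.019). Il31ra, a receptor chain for the itch cytokine interleukin 31, read 8.64, 6.94, 7.88 and 8.79 against 12.81 in telogen and 7.60 in anagen, and passed against telogen at -4.75 ± 0.64 (adjusted p = 0.0303). It too was chosen after its values were seen.

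Against anagen alone the contrast was much wider, with 1850 genes past the threshold, 865 higher (6.34%) and 985 lower (7.21%). Without expanded day 0, 1057 passed. Genes of the growing follicle had the deepest differences among the lists. Of the 22 genes of the growing hair 18 passed lower, and the median was -9.05, while against telogen the median was 0.75 and none passed. Msx2, a transcription factor of the growing hair, read 4.38, 6.31, 4.76 and 4.56 in expanded skin, 4.28 in telogen and 11.67 in anagen (-6.67 ± 0.63 against anagen, limma adjusted p = 0.000785, with 3 expanded values under background). Krt71, a keratin of the inner root sheath chosen after its values were seen, read 5.92, 15.50, 7.38 and 9.37 against 7.82 in telogen and 18.17 in anagen, and did not pass (adjusted p = 0.127). Day 7 carried most of that signal. Without day 7, 11 of the 22 genes lay below both stages, where none did with it, and the median against both stages moved from -4.08 to -5.61.

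Pigment genes showed the same stage contrast. Slc24a5, an ion exchanger of pigment granules, differed from anagen by -6.23 ± 0.35 (limma adjusted p = 0.00015) and from telogen by -1.19 ± 0.35 (adjusted p = 0.106), with all 4 expanded values under the background median, so neither size is a full measure. The expanded day 7 array, with its high hair shaft genes, read 4.69 for Slc24a5 against 10.74 in anagen and 5.70 in telogen, and 5.23 for Pmel. The melanocyte median was -5.31 against anagen and -0.69 against telogen. Slc24a5 too passed the filter on low levels only through its anagen value, so the median against anagen is partly set by that filter. On the higher side against anagen stood Osr1 (4.70 ± 0.48, adjusted p = 0.000874), Lox (4.99 ± 0.51, adjusted p = 0.000874), Il33, an alarm cytokine of keratinocytes and endothelium (6.32 ± 0.64, adjusted p = 0.000874), and Apod (4.99 ± 0.46, adjusted p = 0.000775). Macrophage genes passed higher for 13 of 22, fibrillar matrix genes for 16 of 30 and matrix enzymes for 14 of 29.

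**Figure D4:**
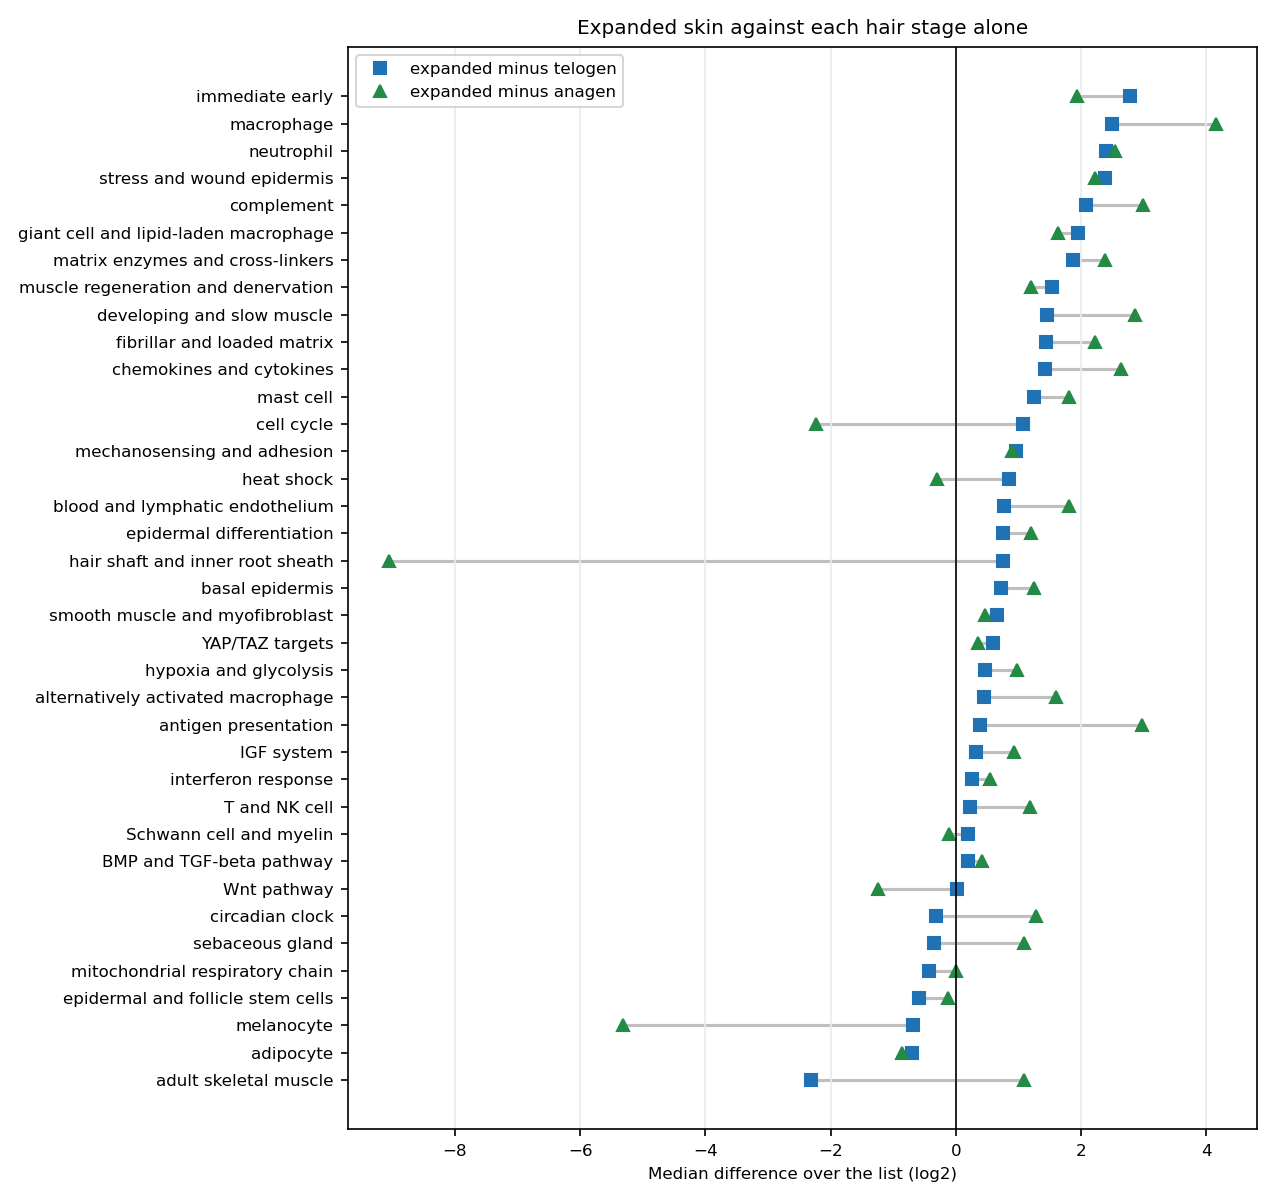
Median difference (log2) over each gene list of expanded skin against telogen alone (squares) and against anagen alone (triangles). Hair shaft, melanocyte, cell cycle and adult muscle lists lie far apart for the 2 stages, at -9.05 against anagen and 0.75 against telogen for the hair shaft, while macrophage, matrix and immediate early lists lie to the right of 0 for both. Part of the hair shaft and melanocyte difference against anagen is set by the filter on low levels.

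Between the stages lay genes whose level in stretched skin was neither resting nor growing. On all 4 expanded arrays 1827 genes (13.4%) lay above telogen and below anagen, and 1360 (9.96%) below telogen and above anagen. Cell division belonged to the former group, with 21 of 32 cell cycle genes in it. Mki67, a marker of dividing cells, read 11.59, 12.88, 12.48 and 11.44, above 10.71 in telogen and below 15.16 in anagen. It differed from telogen by 1.40 ± 0.65 (limma adjusted p = 0.238) and from anagen by -3.06 ± 0.65 (adjusted p = 0.0167). Over the list the median was 1.07 against telogen, where none passed, and -2.24 against anagen, where 12 passed lower. Expanded day 21 had the lowest mean, 7.19, near the 6.97 of telogen, and day 7 the highest, 8.51. Non-expanded skin also lay between the stages, with Mki67 at 12.33, 11.87, 11.83 and 10.82 at days 0, 7, 14 and 21. Mean levels of the cell cycle list there were 8.35, 7.81, 7.88 and 7.08. The list's median difference of expanded from non-expanded skin was 0.21.

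The widest such margin was that of Tmem229b, at 7.92, 10.44, 9.75 and 6.88 against 3.45 in telogen and 14.24 in anagen. That telogen value lay under the background median. Wdr74, a factor in ribosome assembly, followed at 11.28, 11.62, 12.01 and 11.48 against 9.02 and 13.98, and Slc39a6, a zinc transporter, at 11.66, 12.63, 12.26 and 11.67 against 9.68 and 14.86. Ero1a, which oxidises proteins in the endoplasmic reticulum, and Id4, a regulator of differentiation, lay likewise between the stages. In the opposite order stood Serpinb10, a protease inhibitor, at 11.89, 11.71, 13.65 and 13.59, under 15.40 in telogen and over 6.58 in anagen. Tnnc2, the troponin C of fast muscle, read 15.37, 13.07, 13.24 and 15.78, under 17.52 and over 10.48, and 7 of 35 adult muscle genes shared that order. Cd3g, a subunit of the T cell receptor complex, read 6.32 to 7.62 against 9.15 and 4.74, with anagen under the background median.

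The departures from untouched skin may be set beside those of non-expanded skin, which was compared with the same telogen and anagen arrays. There 1567 genes lay above both stages (11.5%) and 985 below both (7.21%). In limma 0 passed, with 2144 at an unadjusted p under 0.05 and a lowest adjusted p of 0.0646. Of the 65 genes that passed for expanded skin, 61 also lay outside both stages on all 4 non-expanded arrays. Of the same 65, 26 lay above or below the range of the non-expanded arrays. Immediate early genes above both stages in non-expanded skin numbered 11 of 24, and developing and slow muscle genes 3 of 17. Ccn3 read 12.34, 16.01, 13.90 and 12.72 in non-expanded skin, and its difference between expanded and non-expanded skin was 2.16 ± 0.77 (limma adjusted p = 0.964). For Lox that difference was 1.65 ± 0.35 (adjusted p = 0.536), for Thbs1 3.01 ± 0.62 (adjusted p = 0.505), for Igfbp2 3.17 ± 0.55 (adjusted p = 0.333) and for Cilp 2.58 ± 0.44 (adjusted p = 0.333). C1qb, at 10.75, 13.73, 9.23 and 12.79 in non-expanded skin, differed by 0.82 ± 0.86 (adjusted p = 0.964). Across all genes Myh3 alone passed this test (0.00732% of genes tested), at 7.24 ± 0.70 (adjusted p = 0.014), with 7.72, 5.09, 5.15 and 5.69 in non-expanded skin. It no longer passed when the expanded array of day 7, 14 or 21 was left out. For the remaining genes a p above the threshold does not show that expanded and non-expanded skin were alike.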

How the data were processed

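Per the labels, total RNA of whole skin was extracted with a Qiagen RNeasy kit and labelled with Affymetrix's WT PLUS kit. The genome build is mm10, per the submitters' processing notes. The deposited values were read as log2 signals from their range (1.88 to 19.88); the log base, background correction, summarisation and normalization by the authors are not given in the sources used here. On at least 1 array 586 probe sets exceeded 16, so the scale may be stretched. The number of arrays limits the precision.

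Of 28846 probe sets, 9243 without a symbol and 31 controls were left out. The 19572 with 1 symbol named 19505 genes, all matched to RefSeq; for 55 genes with several probe sets the highest mean was used. Genes with a mean under the 30th percentile (4.86) were removed, leaving 13653, of which 1486 had a mean under background.

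Differences were fitted with limma 3.58.1 in R 4.3.3 (lmFit, eBayes, two-sided, Benjamini-Hochberg adjustment over all genes tested) over all 10 arrays, as 3 groups (7 residual degrees of freedom), or as 4 groups (6) for each hair stage alone. The code was tested on simulated data. The labels' time point numbers pair arrays by day, but deviations of same-day arrays correlated at -0.133, -0.171, -0.104 and 0.358, so day was not blocked.

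Named genes are the 15 widest gaps on each side, the 8 widest margins between the stages in each order (a level at or above background on the higher side), up to 4 genes of each of 39 lists with the lowest p, and 14 set genes such as Lgr6. Genes that passed were named besides these after their values were seen. The comparison and the lists were chosen with earlier results of these data known.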

Additional observations from a re-analysis of the deposited data

Results flagged for a closer look

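In 3 named genes and 3 gene lists, 1 of the 4 expanded arrays lay far from the other 3 by Dixon's test at its 95% critical value. In all, 110 genes and 37 lists were checked, and chance alone marks about 5% of such groups. Timp1 read 7.82 at day 21 and between 11.54 and 11.90 on the other expanded arrays. The beta tubulin gene Tubb6 read 8.07 at day 21 against 9.84 to 10.12. Wfdc21 read 9.82 at day 21 against 8.77 to 8.89. The hair shaft and inner root sheath mean was 11.01 at day 7 against 4.73 to 5.79. The circadian clock mean was 9.84 at day 7 against 10.54 to 10.58. The mean of the insulin-like growth factor list was 10.31 at day 7 against 10.88 to 10.98. Of 30 genes checked for opposite effects against telogen and anagen, none met the test of a difference. Genes outside both stages on all 4 expanded arrays cannot have opposite effects, because of how they were chosen. Genes between the stages have opposite signs by position, such as Tmem229b, at 5.30 ± 1.12 against telogen and -5.49 ± 1.12 against anagen. No conclusion is drawn from this check.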

How the results depend on the processing

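Against both stages 65 genes passed. Other settings gave totals of 33 with no filter on low levels, 6 with only the expanded and no-surgery arrays in the fit (5 of them among the 65), 736 with telogen and anagen as separate terms, and 1850 with telogen left out. Leaving out 1 expanded array gave 5 to 86 genes. Against telogen the 62 genes became 101 with no filter, 27 above the 50th percentile of level and 299 with the 6 arrays alone, and 0 to 92 when 1 expanded array was left out. Against anagen the total of 1850 became 1057 to 1700 when 1 expanded array was left out. The single gene past the test against non-expanded skin became 0 in 3 of the 4 omissions, giving 0 to 1. A minimum gap of 1 left 335 genes above and 45 below both stages, and omissions gave 2057 to 2434 and 1333 to 1734. With the day as a random replicate block, 63, 61 and 1846 genes passed against both stages, telogen and anagen, and no count moved by over 1.5 times. For the 220 named genes, 3269 alternatives were computed: 2743 kept direction and side of the threshold, 325 lost it, 157 gained it, 44 changed the sign of a value that had not passed, and 0 reversed. Of 468 list medians, 4 changed sign: the stem cell medians given above, and the Schwann cell list, at -0.24 with no filter and -0.25 without day 21. Causes were not tested.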
